A study of Mus musculus with 40 samples.

Results

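Long intergenic noncoding RNAs (lincRNAs) are transcripts without a coding sequence whose genes lie apart from protein-coding genes. Their start sites on chromosomes 1 to 19 came from GENCODE M21 (basic set, GRCm38), and those more than 2000 bp from every protein-coding start site were kept. This left 5476 start sites of 4802 genes, of 5974 start sites of 5209 lincRNA genes before the distance rule. Of the 457842 peaks in the 32 lists, 6432 lay within 1000 bp of one of these sites.

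The lists came from chromatin immunoprecipitation with sequencing (ChIP-seq) in brown fat. The animals were C57BL/6N mice, wild type and aged 20 weeks, with 1 list for each of 4 histone marks in each of 8 mice. Mice 1 and 2 were kept warm on a normal chow diet (NCD), mice 4 and 5 were on NCD and spent 24 h at 4 °C, mice 7 and 8 were kept warm on a high-fat diet (HFD), and mice 10 and 11 were on HFD and spent 24 h at 4 °C. The HFD was given for 12 weeks after chow up to the age of 8 weeks. Warm is the label's word for the housing that the paper calls room temperature, and it does not mean thermoneutral housing. The tissue is labelled iBAT, which the paper gives as interscapular and the series text as inguinal. No transgene or deletion was carried, and the 2 mice of a condition limit what any single condition can show.

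H3K4me3 marks the start sites of active or poised genes, and its width and height follow promoter strength. H3K27ac marks active promoters and active enhancers alike, while H3K4me1 is the usual mark of enhancers. H3K27me3 is set by Polycomb complexes at silent genes. A lincRNA may start from a promoter of the same kind as that of a coding gene, or from an enhancer that is itself transcribed.

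The start sites of 8 brown adipocyte markers were read as a check of the tissue. Ucp1, Cidea, Dio2, Pparg and Fabp4 carried both H3K4me3 and H3K27ac in 8 mice, and all 8 markers had each of the 2 marks in at least 1 mouse. Of 4 endothelial markers, Pecam1 had both marks in 8 mice and Kdr had each in 7. Cdh5 and Tek had H3K4me3 in 8 mice and H3K27ac in 6. Among the brown adipocyte markers, Elovl3 had the 2 marks in 8 and 4 mice and Prdm16 in 7 and 5. The check therefore did not separate brown adipocytes from endothelial cells. Of 5 macrophage markers, 3 had H3K4me3 in 1 or 2 mice and Cd68 also had H3K27ac in 2. Of 5 muscle markers, Acta1 alone had H3K4me3, in 4 mice. None of 3 liver and 3 neuron markers had a peak of either mark. The markers of other cell types were not tested for a part in the results below. Whether a missing peak reflects fewer cells of a type or a weaker mark in each cell cannot be told apart in bulk tissue.

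List length set the scale of what could be seen. The H3K4me1 lists of mice 7, 10 and 1 held 12, 18 and 592 peaks, and the H3K27ac list of mouse 7 held 3224. The H3K27me3 lists held 6428 peaks in mouse 5, 1392 in mouse 11 and at most 309 in the others. A gene without a peak was therefore not detectable as marked at that list's depth, and not shown to lack the mark.

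The 5 start sites below carry the contrasts of this section, and their sequences are shown from 250 bases before the start site to 50 bases after it, 5′ to 3′ on the strand of the gene. Snhg12 had H3K4me3 and H3K27ac in all mice, Gm44127 and 6030469F06Rik had H3K27ac in all mice without H3K4me3, 1700001L05Rik had H3K4me3 in the NCD mice only and 2310015D24Rik had H3K27ac in the cold mice only. The bases were read from the RefSeq copy of GRCm38, and capitals mark CpG dinucleotides.
Snhg12: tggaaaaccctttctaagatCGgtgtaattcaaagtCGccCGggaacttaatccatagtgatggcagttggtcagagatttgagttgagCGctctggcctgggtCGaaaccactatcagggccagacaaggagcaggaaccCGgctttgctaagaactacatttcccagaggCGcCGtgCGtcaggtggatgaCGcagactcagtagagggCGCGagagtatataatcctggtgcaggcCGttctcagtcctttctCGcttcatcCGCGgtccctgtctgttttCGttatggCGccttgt
Gm44127: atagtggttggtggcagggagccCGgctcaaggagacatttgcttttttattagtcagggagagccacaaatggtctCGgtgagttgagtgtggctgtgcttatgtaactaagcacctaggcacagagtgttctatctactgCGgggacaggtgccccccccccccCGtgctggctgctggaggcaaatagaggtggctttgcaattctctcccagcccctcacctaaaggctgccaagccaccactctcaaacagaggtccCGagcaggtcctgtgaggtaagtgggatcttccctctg
6030469F06Rik: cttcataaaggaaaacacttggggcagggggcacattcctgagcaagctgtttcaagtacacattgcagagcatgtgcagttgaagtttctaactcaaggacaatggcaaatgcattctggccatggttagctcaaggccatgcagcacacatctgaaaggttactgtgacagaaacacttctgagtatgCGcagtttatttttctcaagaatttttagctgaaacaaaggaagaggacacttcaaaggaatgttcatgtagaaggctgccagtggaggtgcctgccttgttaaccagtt
1700001L05Rik: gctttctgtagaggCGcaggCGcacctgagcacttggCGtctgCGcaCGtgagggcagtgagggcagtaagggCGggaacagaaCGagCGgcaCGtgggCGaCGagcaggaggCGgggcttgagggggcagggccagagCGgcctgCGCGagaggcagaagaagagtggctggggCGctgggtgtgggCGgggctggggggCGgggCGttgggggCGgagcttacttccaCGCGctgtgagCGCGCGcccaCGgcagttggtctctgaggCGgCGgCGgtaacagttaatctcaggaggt
2310015D24Rik: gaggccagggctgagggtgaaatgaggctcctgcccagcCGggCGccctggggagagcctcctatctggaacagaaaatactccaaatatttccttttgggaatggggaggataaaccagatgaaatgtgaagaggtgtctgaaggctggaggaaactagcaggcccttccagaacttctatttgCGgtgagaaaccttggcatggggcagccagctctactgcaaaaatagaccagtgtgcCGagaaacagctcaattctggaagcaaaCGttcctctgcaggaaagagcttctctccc
Snhg12 lay on the plus strand at chr4:132308427-132308726, and Gm44127 and 6030469F06Rik were on the plus strand at chr6:84225002-84225301 and chr12:31168612-31168911. The minus-strand windows of 1700001L05Rik and 2310015D24Rik were chr15:83367233-83367532 and chr16:13520370-13520669. Over these 300 bases, 1700001L05Rik held 29 CpGs and Snhg12 18, while Gm44127 and 2310015D24Rik held 5 each and 6030469F06Rik 1. A marked gene has a peak within 1000 bp and need not have it over the printed bases. The Snhg12 and Gm44127 windows were overlapped by the named marks in 8 mice, and the 2310015D24Rik window by H3K27ac in its 4 cold mice. An H3K27ac peak overlapped the 6030469F06Rik window in 5 of 8 mice, and its most significant H3K27ac peaks began downstream of the window, with summits at 817 to 4516 bp. The H3K4me3 peaks of 1700001L05Rik overlapped its window in 3 of 4 NCD mice, and their summits lay nearest to another start site of the gene.

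In every mouse more lincRNA genes carried H3K4me3 than H3K4me1 or H3K27me3. A gene was counted as marked when any part of a peak came within 1000 bp of any of its start sites. In mice 1, 2, 4, 5, 7, 8, 10 and 11, in this order, H3K4me3 was at 381, 402, 401, 424, 174, 308, 270 and 452 lincRNA genes. The numbers of lincRNA genes with H3K27ac in the same order were 197, 338, 371, 353, 44, 323, 205 and 413. The HFD mice 7 and 10 had the fewest H3K4me3-marked genes, mouse 11 of the same diet had the most, and mouse 7 had the fewest with H3K27ac. Genes with H3K4me1 numbered 5, 150, 114, 200, 0, 99, 0 and 46, and genes with H3K27me3 numbered 3, 3, 6, 108, 0, 2, 0 and 34.

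**Figure D1:**
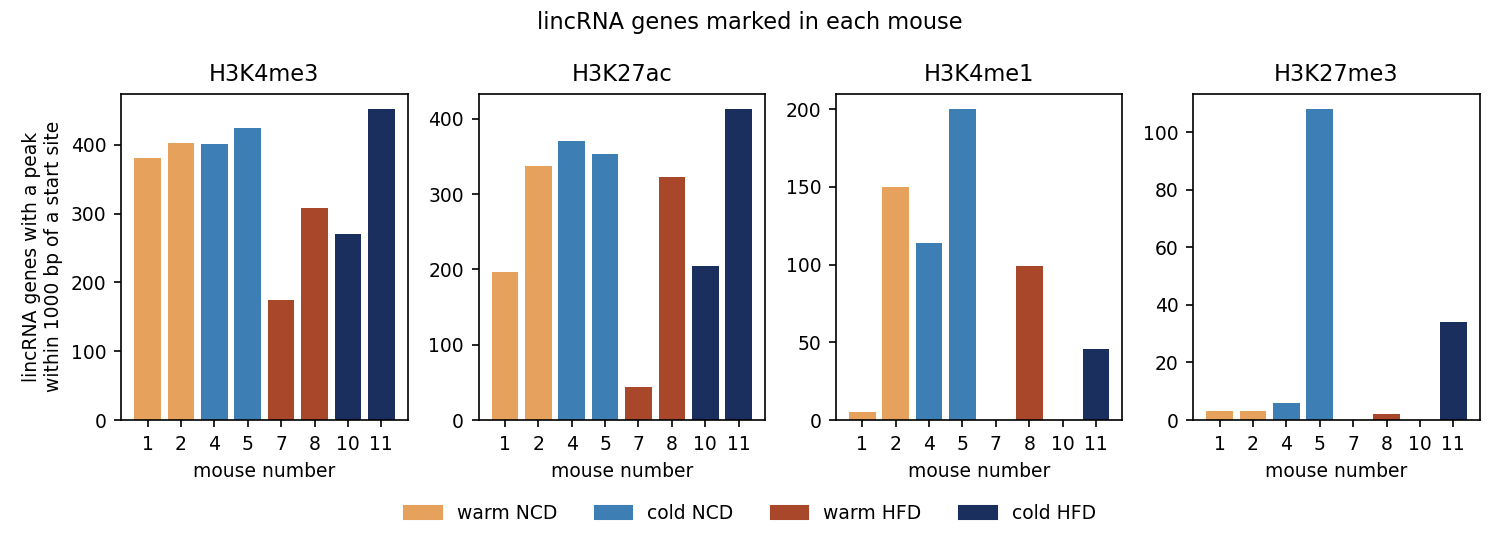
Number of lincRNA genes (y axis, from 0, own scale in each panel) with a peak within 1000 bp of a start site in each mouse (x axis) for the 4 marks, 1 bar per list, coloured by condition. H3K4me3 is lowest in mice 7 and 10, H3K27ac in mice 7, 1 and 10, and H3K27me3 rests on mice 5 and 11.

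In a typical list, H3K4me3 reached 8.14% of the lincRNA genes (median of 8 mice, range 3.62 to 9.41%), against 44.7 to 64.8% of the coding genes. Among lincRNA genes with H3K4me3, the start site itself lay inside the peak in 45.4 to 63.0%, with a median of 59.8%, against 40.4 to 94.6% and 91.9% among coding genes. Only 3 to 15 of the H3K4me3 peaks at lincRNA sites in a list also came within 1000 bp of a coding start site. The summit of the H3K4me3 peak lay downstream of the start in 64.0 to 70.7% of marked lincRNA genes, at a median of 104.5 to 133.5 bp. H3K27ac summits were downstream in 53.9 to 61.4%, and H3K4me1 summits in 49.0 to 56.5% of the genes in the 5 mice with at least 20 such genes.

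The 3 marks differed in the share of their peaks that fell at lincRNA sites. The lowest, median and highest shares over the 8 H3K4me3 lists were 1.41, 1.83 and 1.92%, those over the H3K27ac lists 1.22, 1.39 and 1.68%, and those over the H3K4me1 lists 0, 0.727 and 0.867%. In mice 7 and 10 the H3K4me1 lists were too short to show a share of this size. The share that randomly placed peaks would give was not computed, so these values compare marks and show no excess at lincRNA sites. H3K4me3 and H3K27ac each exceeded H3K4me1 in the other 6 mice, while the ranges of H3K4me3 and H3K27ac overlapped, with mice 7 and 10 having the higher share in H3K27ac. H3K4me3 exceeded H3K27ac by 0.351 percentage points (adjusted p = 0.00171) and H3K4me1 by 1.18 (adjusted p = 0.000233), and H3K27ac exceeded H3K4me1 by 0.831 (adjusted p = 0.000233), by two-sided exact permutation over 8 and 8 lists. Without mice 1, 7 and 10, whose H3K4me1 lists were the shortest, the differences from H3K4me1 were 1.08 and 0.565 (adjusted p = 0.00794 for both, exact permutation). The excess over H3K27ac changed sign with shorter lists. With each mark's lists held to its shortest list, 13517 peaks for H3K4me3 and 3224 for H3K27ac, it was -0.555 (adjusted p = 0.00202, exact permutation). With all 16 lists of the 2 marks held to 3224 peaks it was -1.12, with H3K4me3 higher in 0 of 8 mice (unadjusted p = 0.000155, the smallest that the exact permutation allows), and it was 0.133 when peaks under a −log10 q of 5 were left out (adjusted p = 0.309, exact permutation).

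A lincRNA gene with H3K4me3 in at least 2 mice was called promoter-like, and one with H3K4me1 or H3K27ac in at least 2 mice and H3K4me3 in none was called enhancer-like. Of the 4802 genes, 467 (9.73%) were promoter-like, 162 (3.37%) enhancer-like, 243 (5.06%) had a peak but fell in neither class, and 3930 (81.8%) had no peak of any mark in any mouse. The names describe marks at a start site and not a measured activity.

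Among the promoter-like genes, 163 (34.9%) had H3K4me3 in all 8 mice. H3K27ac was present in at least 2 mice at 256 (54.8%) and in none at 188 (40.3%), and H3K4me1 in at least 2 mice at 63 (13.5%). H3K27ac was most frequent where H3K4me3 was in 8 mice: 139 of these 163 genes (85.3%) had H3K27ac in at least 2. The share was 42.1 to 51.3% with H3K4me3 in 5 to 7 mice and 27.3 to 33.3% in 2 to 4. It was 13 of 47 genes (27.7%) with H3K4me3 in 2 mice. Outside the class, it was 26 of 87 genes (29.9%) with H3K4me3 in 1 mouse. The median H3K4me3 fold percentile, the rank of a peak's fold enrichment within its own list from 0 to 100, was 13.1 at the 87 genes just outside the class, with H3K4me3 in 1 mouse. It was 18.5 at the 47 genes just inside, with 2 mice, and 69.4 at the genes with 8 mice.

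Among the enhancer-like genes, 57 (35.2%) had both H3K27ac and H3K4me1 in at least 2 mice, 74 (45.7%) reached 2 mice with H3K27ac alone and 31 (19.1%) with H3K4me1 alone. Only 9 had H3K27ac in all 8 mice. H3K27ac summits lay farther from the start site at enhancer-like than at promoter-like genes in 8 of 8 mice, with medians by mouse of 404 to 734 bp against 309 to 378 bp. The fold percentile of H3K27ac was higher at promoter-like genes in 7 of 8 mice, with mouse 7 the exception on 31 and 9 genes. H3K27ac width did not separate the classes, being higher at promoter-like genes in 3 of 8 mice. These class contrasts were not tested.

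The next comparison asked how marks at lincRNA start sites differed from those at protein-coding genes (20807) and at antisense genes held to the same distance (1960). H3K27ac without H3K4me3 was common at lincRNA genes and rare at coding genes. The percentage of H3K27ac-marked genes that lacked H3K4me3 in the same mouse ranged from 24.9 to 47.7% at lincRNA genes, with a median of 38.8%, and from 0.409 to 2.39% at coding genes, with a median of 1.45%. The groups did not overlap, and the mean difference was 37.9 ± 6.67 percentage points (SD, n = 8), higher in 8 of 8 mice (adjusted p = 0.0469, two-sided exact sign-flip permutation within mice). At antisense genes the share was 38.7 to 54.5%, and lincRNA genes were below them by 9.24 ± 6.20 points on average, in 7 of 8 mice, which did not pass (adjusted p = 0.0625, exact permutation). Mouse 7 went the other way, and without it the difference was -11.3 points (adjusted p = 0.0469, exact permutation).

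H3K4me3 peaks were narrower at lincRNA start sites. Their median width by mouse ranged from 535 to 868 bp (median 768 bp), and that of coding genes from 637 to 1620 bp (median 1294 bp). The ranges overlapped through mouse 7, yet lincRNA peaks were narrower within each of the 8 mice, by 498 ± 230 bp (SD, n = 8; adjusted p = 0.0469, exact permutation). With 7 mice both calls against coding genes held when mouse 7 was left out and were lost when any other mouse was (adjusted p = 0.0469 to 0.0938, exact permutation). Fewer mice raise the smallest p that sign flips allow, so a lost call does not show that a mouse carried the result. The differences without 1 mouse were 36.8 to 39.8 percentage points and -555 to -451 bp. Against antisense genes the difference was -47.6 ± 96.3 bp (adjusted p = 0.323, exact permutation). H3K27ac peaks were 425 to 812 bp wide at lincRNA and 385 to 801 bp at coding genes, a mean difference of 26.1 ± 64.4 bp that did not pass (adjusted p = 0.384, exact permutation). This difference was 155 bp with peaks of −log10 q 5 or more, 604 bp with lists of equal length within the mark (adjusted p = 0.0313 for both, exact permutation) and -15.4 bp when summits set the distance.

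The fold percentile of H3K4me3 peaks was 38.1 to 63.0 at lincRNA sites and 49.4 to 70.7 at coding sites. It was lower at lincRNA sites in 7 of 8 mice, on average by -18.0 ± 15.1 (SD, n = 8), and did not pass (adjusted p = 0.0703, exact permutation). Mouse 7 went the other way, and without it the difference was -22.5 (adjusted p = 0.0469, exact permutation). For H3K27ac the mean difference from coding sites was -0.0915 ± 12.8 (adjusted p = 0.992, exact permutation). The share of H3K4me3-marked genes that also carried H3K27ac had a median of 52.3% at lincRNA, 53.0% at antisense and 62.0% at coding genes, and neither difference passed (adjusted p = 0.125 and 0.161, exact permutation). With lists of equal length within a mark, the mean difference from coding genes went from -8.27 to 2.69 percentage points.

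**Figure D2:**
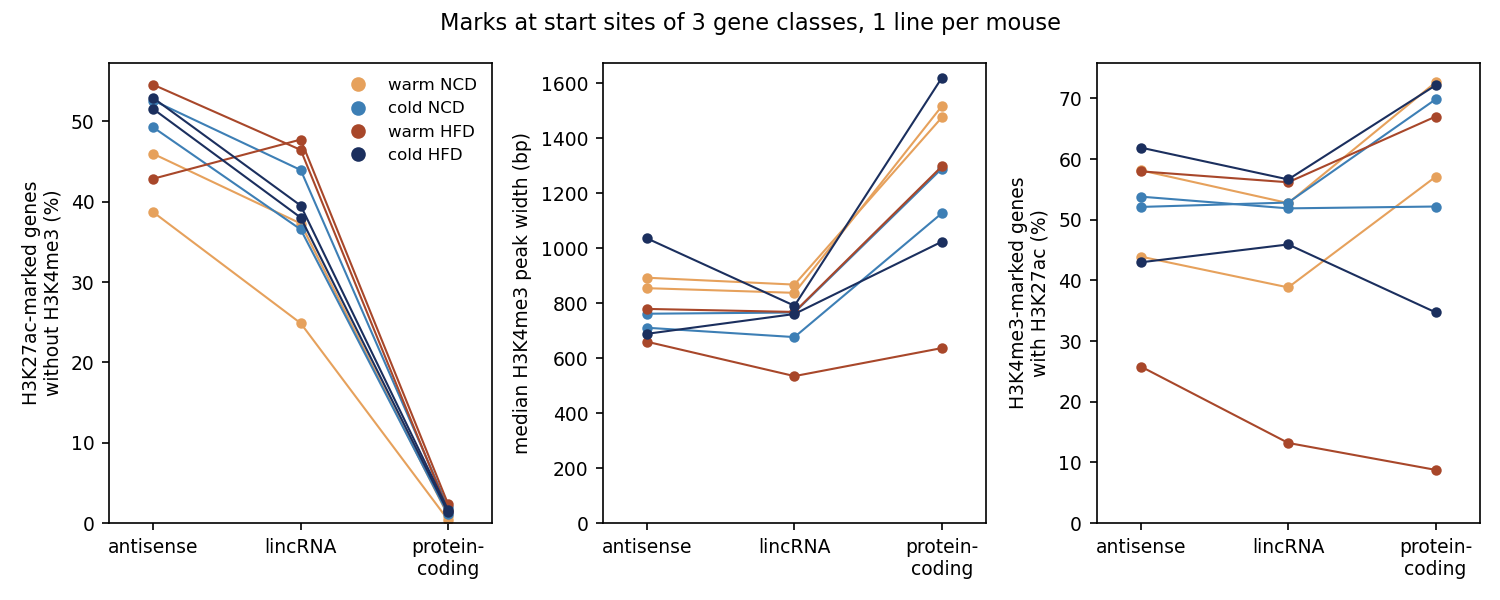
Share of H3K27ac-marked genes without H3K4me3 (left, %), median H3K4me3 peak width (middle, bp) and share of H3K4me3-marked genes with H3K27ac (right, %) at antisense, lincRNA and protein-coding genes, 1 line per mouse, coloured by condition. In the left panel the 8 lines drop from 24.9 to 47.7% at lincRNA genes to at most 2.39% at coding genes.

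The classes differed in base composition. The peak calls had not used it, but at marked genes with several start sites the peaks chose the site that was measured. Observed over expected CpG in the 500 bp on each side of the start site, a measure that is high in CpG islands, had a median of 0.430 at promoter-like and 0.199 at enhancer-like lincRNA genes. It was 0.202 at lincRNA genes without a peak and 0.586 at coding genes. The median GC contents of these 4 groups were 51.5, 47.0, 45.3 and 55.5%. A GC content over 50% together with a CpG ratio over 0.6, a common description of an island, held for 22.5% of promoter-like genes, 0% of enhancer-like genes, 0.280% of genes without a peak and 47.4% of coding genes.

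Read the other way, the share of promoter-like genes was higher at higher CpG ratios. Of the 2124 lincRNA genes with a ratio under 0.2, 36 (1.69%) were promoter-like, and of the 159 with a ratio of 0.6 or more, 117 (73.6%) were. The enhancer-like share went from 3.86% to 0% over the same bins. These shares are a description over genes, with no test.

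**Figure D3:**
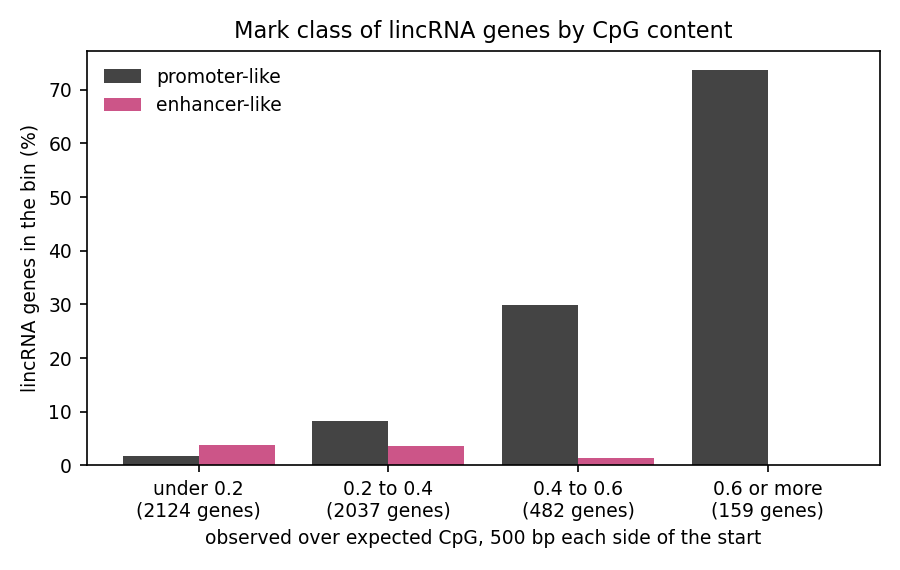
Percentage of lincRNA genes (y axis) that were promoter-like or enhancer-like in 4 bins of observed over expected CpG within 500 bp of the start (x axis, number of genes in brackets). Promoter-like genes go from 1.69% in the lowest bin to 73.6% in the highest.

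Motifs were searched in the 250 bases before and 50 after the start. GGGCGG, the GC box, was on either strand of 32.1% of promoter-like and 8.64% of enhancer-like windows, against 8.54% of all lincRNA and 45.6% of coding windows of the same length. CCAAT, on either strand, was in 37.5, 29.0, 37.7 and 38.4% of these. TATAAA, on the gene's strand from 45 bases before to 30 after the start, was in 1.71, 3.09, 2.52 and 3.69%. The printed window of 1700001L05Rik holds 4 GC boxes. A match is a run of letters and not a bound site.

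The named long noncoding RNAs were led by the nuclear transcripts Malat1 and Neat1 and by snoRNA host genes. Of the fixed list of known lncRNAs, 15 were admitted by type and distance. Malat1 and Neat1, which lie near each other on chromosome 19 and localise to nuclear speckles and paraspeckles, had H3K4me3 and H3K27ac in 8 mice. At Neat1 the fold enrichment of the H3K27ac peak in mice 1, 2, 4, 5, 7, 8, 10 and 11 was 18.5, 25.9, 47.3, 19.7, 13.5, 17.1, 21.3 and 41.9, and its fold percentile was at least 96.6 in every list. The Neat1 H3K27ac peak was 2446 to 16935 bp wide with a median of 12259 bp, narrowest in mouse 7. At Malat1 the H3K4me3 percentile was 84.7 to 99.9, with its summit 1406 to 1554 bp downstream of the nearest annotated start site.

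Snhg12, a host gene of small nucleolar RNAs, had H3K4me3 at fold percentiles of 83.9 to 99.5 and H3K27ac at 51.7 to 93.6 in 8 mice. The H3K4me3 fold enrichment at Snhg12 in mice 1, 2, 4, 5, 7, 8, 10 and 11 was 44.5, 48.4, 70.7, 135.9, 19.5, 24.6, 19.9 and 31.9, which are values within separate lists and were not compared between mice. Snhg20 and Snhg6 had H3K4me3 in 8 mice too, and H3K27ac in 7 and 4. These host genes had their H3K4me3 summits 91 to 381 bp downstream of the start.

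The hosts of 2 microRNA loci carried H3K4me3 without H3K27ac. Mir155hg, the precursor of the inflammation-linked miR-155, had H3K4me3 in 8 mice at fold percentiles of 7.00 to 71.0, lowest in mice 10 and 7, and H3K27ac in none. Mir17hg, host of the oncogenic miR-17-92 cluster, had H3K4me3 in 7 mice at percentiles of 40.4 to 67.2. Pvt1, 50625 bp from the start of Myc, had H3K4me3 in 7 mice and H3K27ac in 6.

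The imprinted genes were at the low end. Meg3, expressed from the maternal allele, had H3K4me3 in 3 mice, the cold mice 4, 5 and 11, at fold percentiles of 7.57, 17.7 and 16.9. H19, another maternally expressed gene, had H3K27me3 in mouse 5 and no other peak, while Mirg, from the same imprinted cluster as Meg3, had none. Mirt1 had no peak either. Hotair, which lies in the HoxC cluster, Rmst and Miat had H3K27me3 only, in 1, 1 and 2 mice.

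The 10 promoter-like genes with the highest H3K4me3 percentile among those marked in 8 mice included Malat1, Snhg12 and Neat1. The others were Gm6712, Gm26901, Gm39469, Gm23925, Gm16386, 2810405F17Rik and B930059L03Rik, with median percentiles of 91.0 to 94.8. Of these, 2810405F17Rik had H3K27ac in 8 mice at a median percentile of 98.4, and Gm23925 had it in none. The Gm23925 summits lay at -1485 to -1461 bp from its start, negative being upstream, so the peak reached the window by its edge. For 2810405F17Rik the nearest coding gene, Cela3a, which encodes a pancreatic protease and starts 21409 bp away, had no H3K4me3 in any mouse.

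The enhancer-like genes with peaks in most lists were Gm44127, Gm47267, Gm45253, 6030469F06Rik, A730020M07Rik, Gm32250, Gm47948 and CT030636.1. At Gm44127 the H3K27ac fold percentile in mice 1, 2, 4, 5, 7, 8, 10 and 11 was 95.7, 95.0, 97.2, 93.3, 92.1, 97.9, 94.9 and 84.2. These peaks ranked above 90 in 7 of the 8 lists, at a start site where H3K4me3 was in no list, and H3K4me1 was there in mice 2, 4, 5 and 8. Gm47267 ranked at 42.0 in mouse 2 and at 87.2 to 99.7 in the other mice, with H3K27ac peaks of 1448 to 7488 bp. Gm45253, at 69.6 to 97.8, started 85149 bp from Acsl1, an acyl-CoA synthetase of fat metabolism, and on the other strand. Gm47948 started 57970 bp from Nampt, an enzyme of NAD synthesis, and had H3K27ac in 6 mice and H3K4me1 in 5.

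**Figure D4:**
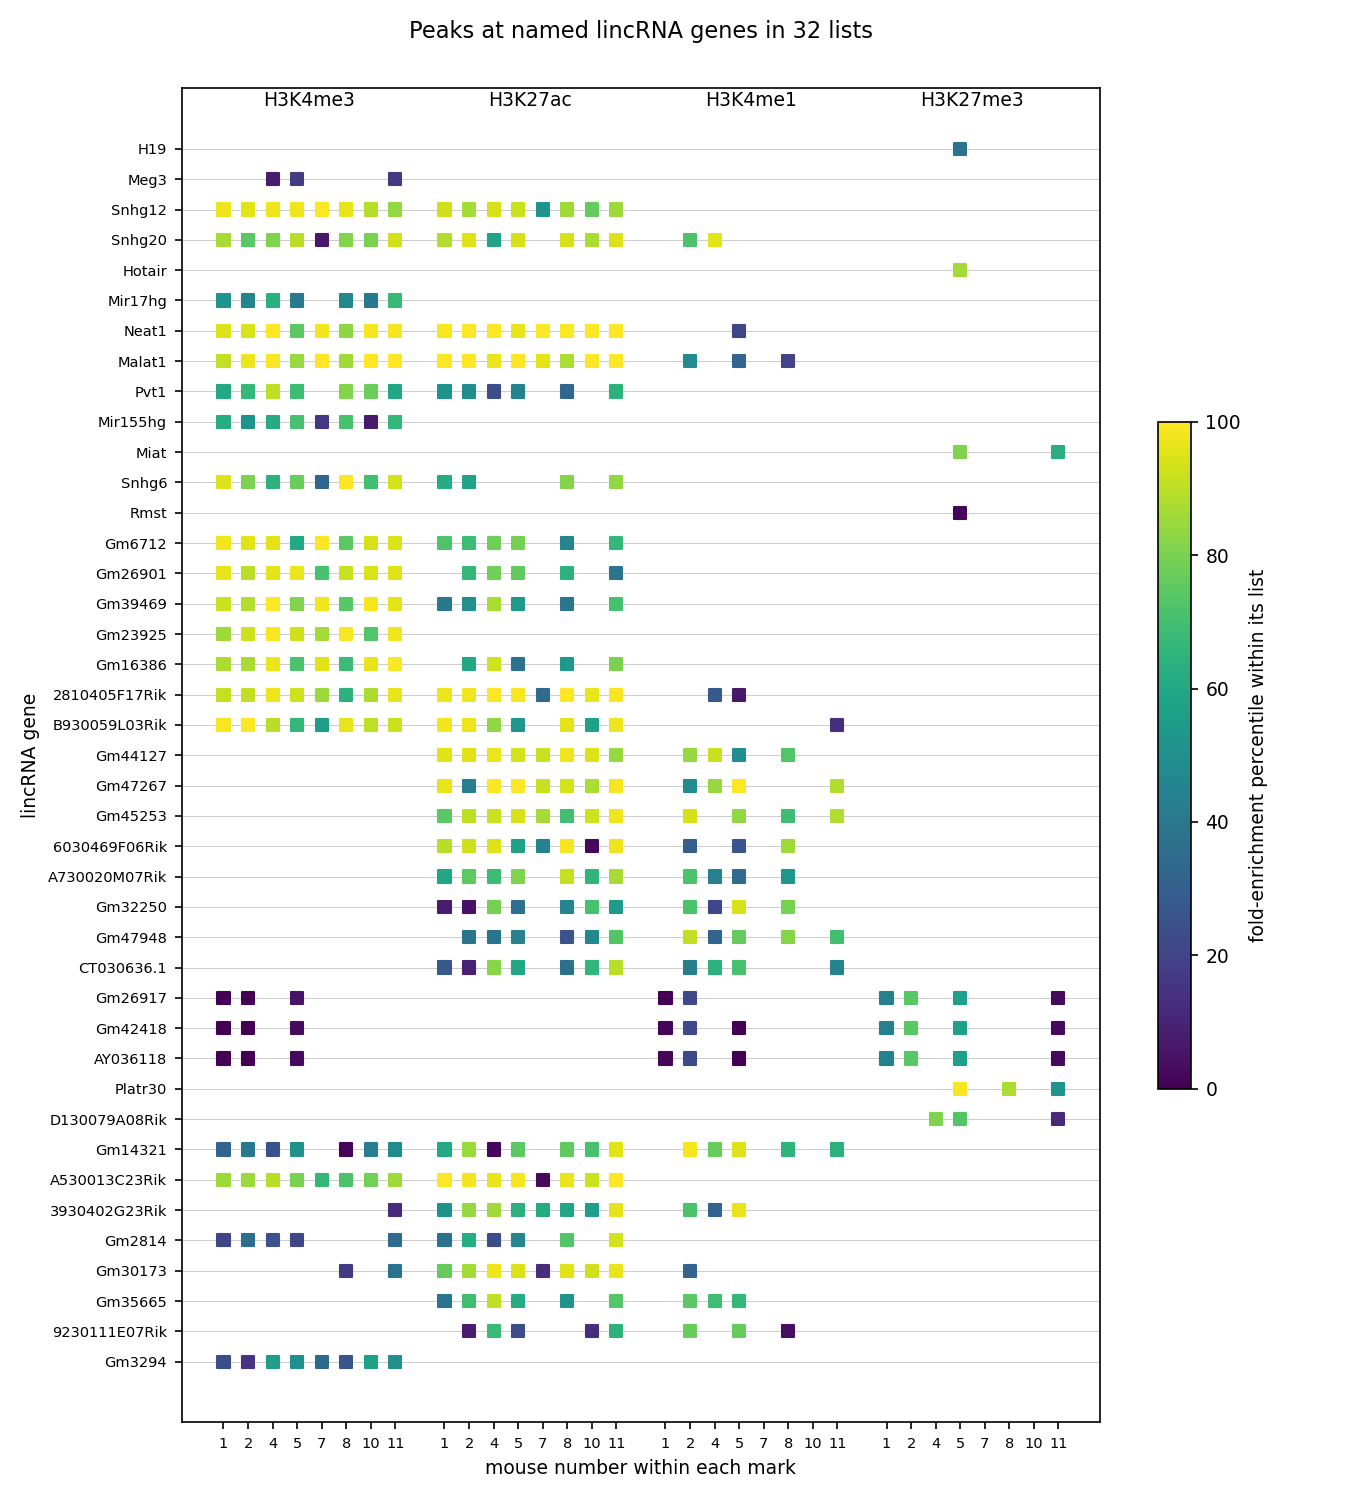
Peaks at lincRNA genes named by the rule (rows) in the 32 lists (columns, mouse numbers within each mark), coloured by the percentile of the peak's fold enrichment within its list. An empty place is a gene without a peak; Malat1, Neat1 and Snhg12 are filled for H3K4me3 and H3K27ac, and Gm44127 for H3K27ac with no H3K4me3.

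H3K27me3 was seen at 114 lincRNA genes, 108 of them in mouse 5, 34 in mouse 11 and 29 in both. In mouse 5, 35 of the 108 (32.4%) also had H3K4me3 and 2 (1.85%) had H3K27ac, against 8.83 and 7.35% of all lincRNA genes. The 2 peaks of a gene need not overlap or come from the same cells, so the pairing known as bivalent was not tested. The median CpG ratio of the 114 genes was 0.469. Platr30 had H3K27me3 in mice 5, 8 and 11, and D130079A08Rik, 8663 bp from the start of the neuronal factor Pou4f1, in mice 4, 5 and 11. Gm26917, Gm42418 and AY036118 had H3K27me3 in 4 mice, H3K4me3 in 3 and H3K4me1 in 2 or 3, at H3K4me3 fold percentiles of at most 4.81. They overlap or adjoin each other on chromosome 17, and RefSeq lists Gm42418 as Rn18s-rs5, a pseudogene related to ribosomal RNA. Reads of a repeated sequence therefore cannot be assigned to these 3 genes with certainty. All 3 are among the 35 genes with H3K27me3 and H3K4me3 in mouse 5.

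Marked lincRNA genes lay nearer to coding genes than unmarked ones. The nearest protein-coding start site was at a median distance of 38445 bp for promoter-like, 49281 bp for enhancer-like and 84747 bp for genes without a peak. Promoter-like genes made up 17.5% of the 212 genes at up to 5000 bp and 4.84% of the 1983 genes beyond 100000 bp. The neighbour was on the opposite strand in 47.8% of promoter-like and 53.1% of enhancer-like genes.

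The neighbours themselves were marked more often than coding genes at large. The nearest coding gene had H3K4me3 in at least 2 mice for 82.4% of promoter-like, 82.1% of enhancer-like and 74.3% of unmarked lincRNA genes, against 64.2% of all coding genes. H3K27ac in at least 2 mice was at 63.8, 72.8 and 48.5% of these neighbours and at 47.6% of all coding genes. These are shares over genes, in which 1 coding gene can be the neighbour of several lincRNA genes.

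Of 57 brown fat genes in a fixed list, 16 were the nearest coding gene of a lincRNA, with 42 lincRNA genes in all. Any peak was seen at 12 of the 42 (28.6%, against 18.2% of all lincRNA genes), 7 were promoter-like (16.7% against 9.73%) and 4 enhancer-like (9.52% against 3.37%). These shares were not tested, and lincRNA genes that share a neighbour are not independent. Around Cebpb, a transcription factor of adipocyte differentiation, A530013C23Rik started 2262 bp away and had both H3K4me3 and H3K27ac in 8 mice. Its H3K27ac percentiles were 92.2 to 99.7 outside mouse 7, where it was at 2.56. The H3K4me3 peaks were 2282 to 5422 bp wide with summits at -501 to -222 bp, on the side of Cebpb. The H3K27ac peaks were 998 to 14143 bp wide. Whether these peaks belong to the lincRNA or to Cebpb was not tested. Gm14321, 88552 bp from Cebpb, had H3K4me3 and H3K27ac in 7 mice each and H3K4me1 in 5. 9230111E07Rik, 93138 bp from it, was enhancer-like, with H3K27ac in 5 mice.

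Gm35665, 22146 bp from the adipogenic factor Cebpa, was enhancer-like with H3K27ac in 6 mice and H3K4me1 in 3. Near Irs2, an adaptor of the insulin receptor, 3930402G23Rik had H3K27ac in 8 mice and H3K4me3 in mouse 11 alone, and Gm2814 had H3K4me3 in 5 and H3K27ac in 6. Gm30173, 248628 bp from Foxo1, had H3K27ac in 8 mice and H3K4me3 in mice 8 and 11. Gm3294, 78586 bp from the leptin gene Lep, had H3K4me3 in 8 mice at percentiles of 15.2 to 57.3 and no H3K27ac.

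The study varied housing temperature and diet, and the number of marked lincRNA genes was compared over 4 and 4 mice. No difference passed. The log10 number of lincRNA genes with H3K4me3 was 2.58 ± 0.101 in cold and 2.48 ± 0.166 in warm mice (SD, n = 4 each; adjusted p = 0.457, two-sided exact permutation), and 2.45 ± 0.171 on HFD and 2.60 ± 0.0190 on NCD (adjusted p = 0.419, exact permutation). With H3K27ac it was 2.51 ± 0.136 in cold and 2.24 ± 0.414 in warm mice (adjusted p = 0.419, exact permutation), and 2.27 ± 0.436 on HFD and 2.49 ± 0.128 on NCD (adjusted p = 0.543, exact permutation). Mouse 7 carried much of these values: without it the H3K4me3 difference was 0.0214 in place of 0.101 for cold minus warm and -0.0789 in place of -0.150 for HFD minus NCD. The H3K27ac differences were then 0.0670 in place of 0.267 and -0.00616 in place of -0.215. The smallest p that 4 against 4 mice allow is 0.0286.

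Scaled to the coding genes of the same list, 1.87 to 3.44 lincRNA genes carried H3K4me3 per 100 coding genes with the mark. The mean was 3.00 ± 0.469 in cold and 2.61 ± 0.560 in warm mice, and 2.53 ± 0.658 on HFD and 3.08 ± 0.0698 on NCD (SD, n = 4 each; adjusted p = 0.419 for both, exact permutation). The 4 NCD mice lay between 2.98 and 3.14 and inside the range of the HFD mice, which were 1.87, 2.47, 2.34 and 3.44. For H3K27ac the values were 4.59 ± 0.735 in cold and 3.83 ± 1.07 in warm mice, and 4.60 ± 0.667 on HFD and 3.82 ± 1.11 on NCD (adjusted p = 0.419 for both, exact permutation). The interaction of temperature and diet was -0.645 for H3K4me3 and 1.28 for H3K27ac, and neither passed (adjusted p = 0.457 for both, exact permutation over 2520 assignments).

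Presence at single genes followed. H3K4me3 was in all 4 NCD mice and no HFD mouse at 11 of the 554 lincRNA genes with the mark (1.99%), against 0.28% of all 17840 annotated genes with it and 0.182% of coding genes. These peaks were weak, with median fold percentiles of 12.8 to 28.6, and the count was 1 (0.332%, against 0.208% of all annotated genes) when all H3K4me3 lists were cut to the length of the list of mouse 7, an HFD mouse. The converse, H3K4me3 in HFD mice only, was at 0 lincRNA genes (0.0392% of all). With the lists cut to equal length it was at 3 (0.997%, against 0.137% of all), so the cut lists did not keep the NCD excess. H3K4me3 was in the cold mice only at 1 gene (0.181%, against 0.0336% of all), and in the warm mice only at 0 (0.00561% of all).

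1700001L05Rik had the highest median −log10 q of the NCD-only H3K4me3 genes, 15.4, with fold enrichments of 5.86, 6.10, 8.04 and 18.2 in mice 1, 2, 4 and 5, and a CpG ratio of 0.812. Its nearest coding gene, Arfgap3, a regulator of Golgi transport 17035 bp away, had H3K4me3 in 8 mice. Gm45237, 77567 bp from the growth factor receptor gene Fgfr1, had fold enrichments of 6.24, 5.26, 11.5 and 9.76 in the same mice, and H3K27ac in mice 2, 4, 5 and 11. Gm12746, 42922 bp from Acot11, an acyl-CoA thioesterase induced by cold in brown fat, had 4.43, 3.91, 6.92 and 10.1. Gm9916 had 5.03, 4.52, 6.43 and 12.5. Fold enrichment is not on a scale shared between lists, so these values were not compared between mice. E130006D01Rik was the gene with H3K4me3 in the cold mice only, at 9.66, 7.05, 4.91 and 3.70 in mice 4, 5, 10 and 11.

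H3K27ac was in all 4 cold mice and no warm mouse at 4 of the 499 lincRNA genes with the mark (0.802%), against 0.155% of all 14184 annotated genes with it. These were 2310015D24Rik, Gm49282, Gm34256 and Gm47851, with median fold percentiles of 47.6 to 60.8. At 2310015D24Rik the fold enrichment was 5.95, 7.31, 6.07 and 5.69 in mice 4, 5, 10 and 11, and at Gm34256 it was 5.75, 6.14, 4.36 and 6.13. At Gm49282 it was 4.00, 7.07, 7.30 and 5.84, and at Gm47851 4.58, 4.61, 7.42 and 5.66. The cold mice 4, 5, 10 and 11 had these peaks and the warm mice 1, 2, 7 and 8 did not. The warm mouse 7 had the shortest H3K27ac list (3224 peaks), followed by the cold mouse 10 (14511) and the warm mouse 1 (16889). With the looser division of 3 against 3 mice that leaves out mice 7 and 10 and keeps mouse 1, the count was 18 (3.61%, against 0.811% of all annotated genes). With peaks of −log10 q 5 or more in all 8 mice it was 1 (0.246%, against 0.0773%). Of the 4, 3 were enhancer-like, and Gm49282 had H3K4me3 in mice 2, 4, 5 and 11. H3K4me1 was at 2310015D24Rik in mice 5 and 8 and at Gm34256 in mice 2, 4, 5 and 8. The division by temperature at these genes thus held for H3K27ac and not for every mark.

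H3K27ac in NCD mice only was at 1 gene, 1110019B22Rik (against 0.0987% of all), with fold enrichments of 4.74, 8.14, 6.14 and 6.49 in mice 1, 2, 4 and 5. None of the lincRNA genes had H3K27ac in HFD mice only or in warm mice only, nor did any annotated gene (0% for both).

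**Figure D5:**
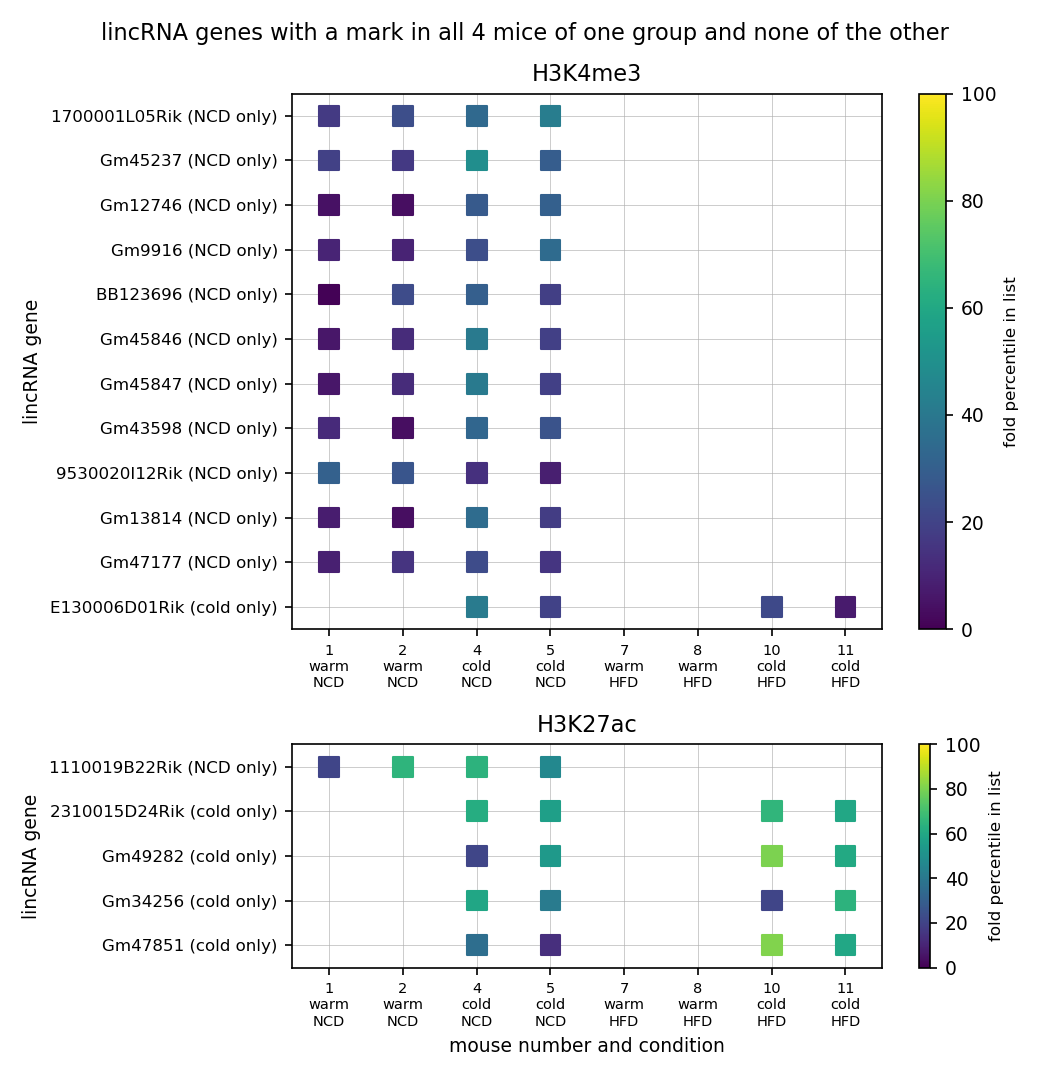
lincRNA genes (rows) with H3K4me3 (upper panel) or H3K27ac (lower panel) in each mouse of 1 diet or temperature and in no mouse of its opposite, by mouse and condition (columns), coloured by the fold percentile of the peak within its list. The 11 NCD-only H3K4me3 genes are dark, with median percentiles of 12.8 to 28.6; Gm45846 and Gm45847 share the same peaks.

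No single gene can pass a test of presence across all genes, since 0.0286 is the smallest exact p for 4 against 4 mice. Within conditions, H3K4me3 was shared by both mice at 359 of 424 lincRNA genes in warm NCD (84.7%), 371 of 454 in cold NCD (81.7%), 173 of 309 in warm HFD (56.0%) and 270 of 452 in cold HFD (59.7%). For H3K27ac the shares were 57.4, 72.0, 13.6 and 49.3%. The HFD conditions each held 1 of the short lists, of mice 7 and 10, so list length and diet cannot be told apart in these shares.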

How the data were processed

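ChIP-seq peak lists of 4 histone marks in 8 mice were used. The 8 inputs were used only through these lists. Per the study's methods, the authors filtered reads with cutadapt, aligned them to GRCm38 with bowtie2 and called peaks with macs2 against the input. Neither tool versions nor a calling threshold were stated in the sources, and the smallest deposited −log10 q was 1.30. The deposited fold enrichment is a ratio of ChIP signal to local background, and the deposited −log10 p-value and −log10 q come from the peak caller within each list. Fold was therefore ranked within its list and not compared between lists. The number of peaks in a list was taken as its depth, since the files give no read counts.

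Members, classes and lists of genes were chosen with earlier results of these data known. The number that opens each sample title was taken to identify the same animal across marks, although the study's methods leave room for pooled tissue of 2 mice in each experiment. P-values then measure the spread between these samples. Gene classes were compared within mice by exact sign flips (256, smallest p 0.00781), conditions by exact permutation of 4 against 4 mice (70 assignments) and marks over 8 and 8 lists (12870). All tests were two-sided. The Benjamini-Hochberg adjustment covered 12 class, 8 condition, 2 interaction and 3 mark tests, with a threshold of 0.05. Over the 8 mice, the percentage of peaks at lincRNA sites had a Pearson correlation between marks of -0.615 (H3K4me3 and H3K27ac), 0.845 (H3K4me3 and H3K4me1) and -0.697 (H3K27ac and H3K4me1), so the within-mouse comparison of marks was run as well. For neighbours and base composition, each lincRNA gene was represented by its start site with peaks in most lists, or by the 5′-most of equals. Neighbour distances ran to the nearest of all 39627 protein-coding start sites, and the marks of a neighbour were read at all its start sites. For base composition, each coding gene was represented by its 5′-most start site.

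Named genes were the known lncRNAs of a fixed list; the 10 promoter-like genes marked in 8 mice with the highest median H3K4me3 percentile; the 8 enhancer-like genes with most peaks; up to 4 genes for each division by condition, by median −log10 q; the 5 with H3K27me3 in most mice; and up to 8 beside brown fat genes. Gm45846 and Gm45847 were named after their values were seen. Where a gene had several peaks in a list, the one with the highest −log10 q was described. Alternatives were a summit rule, a 500 bp window, −log10 q of at least 5, the 5′-most start site, a distance of 5000 bp, lists of equal length within a mark, other numbers of mice for a class, 1 exception among the 8 mice, and leaving out each mouse. Leaving out mice 7 and 10, or 1, 7 and 10, and holding the lists of both marks to 1 length, were chosen after seeing the data. Summit distances were taken from the gene's nearest start site. Scripts were tested on simulated data. Python 3 libraries numpy, pandas and matplotlib were used.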

Additional observations from a re-analysis of the deposited data

Results flagged for a closer look

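Among 27 groups of values examined, 4 had a mouse far from the others, where chance alone gives about 1 in 20. In mouse 7, 13.2% of H3K4me3-marked lincRNA genes also carried H3K27ac, against 38.8% in the next lowest mouse and 56.6% in the highest. The median H3K4me3 fold percentile at lincRNA sites was 63.0 in mouse 7, against 49.4 in the next highest. The log10 number of lincRNA genes with H3K27ac was 2.29 in mouse 1, against 2.53 in the next lowest of the NCD mice. H3K27me3 was at 108 lincRNA genes in mouse 5 and at 34 in mouse 11, the next highest. The H3K27ac list of mouse 7 and the H3K27me3 list of mouse 5 were the shortest and the longest of their marks, and the part of list length in these values was not tested.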

How the results depend on the processing

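Of the values recomputed without 1 mouse each, 194 kept their direction and their side of the threshold, 14 lost a call, 2 gained one and 6 changed sign. The share of H3K27ac-marked genes without H3K4me3 exceeded that at coding genes by 36.8 to 39.8 percentage points and lay below that at antisense genes by -11.3 to -8.59. H3K4me3 peaks were narrower than at coding genes by -555 to -451 bp, and their fold percentile differed by -22.5 to -16.3. Both class calls against coding genes were lost without 7 of the 8 mice (adjusted p = 0.0469 to 0.0938, exact permutation), where 7 mice allow no sign-flip p under 0.0156. The H3K27ac percentile differed from coding genes by -4.16 to 1.48 and from antisense genes by -3.67 to 0.818. Without mice 7 and 10, chosen after seeing the data, the class differences were 36.6 points and -603 bp (adjusted p = 0.075 for both, exact permutation). Leaving out 2 mice raises the smallest sign-flip p further. Without mice 7 and 10 the H3K27ac percentile against antisense genes was 0.182, and the HFD minus NCD difference in log10 H3K27ac genes was 0.0774. With mouse as a replicate block the mark differences were 0.351, 1.18 and 0.831 (adjusted p = 0.0313, 0.0117 and 0.0117, exact permutation), so the block changed no call.

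Lists of equal length within a mark, which left H3K4me3 lists at 13517 and H3K27ac lists at 3224 peaks, gave -0.555 for H3K4me3 minus H3K27ac, and all 16 lists at 3224 peaks, chosen after seeing the data, gave -1.12. Equal lists also gave 2.69 for H3K4me3-marked genes with H3K27ac against coding genes, 604 bp for H3K27ac width against coding genes, and 2.80 and 1.48 for the H3K4me3 percentile against antisense and the H3K27ac percentile against coding genes. A −log10 q of at least 5 gave 0.133 for H3K4me3 minus H3K27ac, -69.4 bp for H3K4me3 width against antisense genes, 155 bp for H3K27ac width and 0.949 for the H3K27ac percentile against coding genes. The summit rule gave 45.7 bp and -15.4 bp for those widths, the 5000 bp distance 32.7 bp for the first, and the 500 bp window and 5′-most site 1.49 and 0.0376 for the H3K27ac percentile. The cause was not tested.

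Genes with H3K4me3 in NCD mice only numbered 6 with the 500 bp window, 3 with the stricter q, 1 with equal lists and 47 with 1 exception allowed, where the same rules called 0.26, 0.172, 0.208 and 2.56% of all annotated genes with the mark. H3K4me3 in HFD mice only was at 1 gene by summit, 3 with equal lists and 4 without mice 7 and 10 (0.0345, 0.137 and 0.14% of all). It was in cold mice only at 2 with equal lists, 28 with 1 exception and 22 without mice 7 and 10 (0.0975, 1.04 and 0.903% of all), and in warm mice only at 1 with 1 exception (0.0729%). H3K27ac in NCD mice only was at 0 genes with the stricter q and with equal lists and 7 with 1 exception (0.0464, 0.516 and 1.64% of all). It was in HFD mice only at 2 with 1 exception and 10 without mice 7 and 10 (0.134 and 0.86%), and in cold mice only at 1 with the stricter q, 33 with 1 exception and 18 without mice 7 and 10 (0.0773, 1.5 and 0.811%). Enhancer-like genes numbered 244 with 1 mouse required, 81 with 4, and 101 with the stricter q. List length, from 12 to 40604 peaks, limits what a missing peak can show.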
